A study of Mus musculus with 4 samples.

Results

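A set of 10 genes whose products restrain immune responses in tumours were followed in SCC7 tumours of mice given an antibody against CD71: Arg1, Arg2, Nos2, Ido1, Tgfb1, Il10, Vsir, Lgals9, Ptgs2 and Nt5e. They were chosen by symbol, and all 10 were found among the 17574 genes that the deposited transcripts map to. SCC7 is a mouse squamous carcinoma line, and its cells had been injected under the skin of the back of C3H/HeN mice. Tumours of the anti-CD71 group (2 libraries) came from mice that had received the antibody on days 6 and 9, and tumours of the control group (2 libraries) from mice labelled as controls, whose injection, if any, is not described in the labels. All tumours were taken on day 10, all animals are labelled as wild type, and neither their age nor a pooling of tumours is given, so the p-values measure only the spread between these samples.

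Tumours recruit and reshape immune cells that would otherwise attack them. Myeloid cells that enter a tumour express enzymes that consume amino acids T cells depend on: arginase 1, arginase 2 and inducible nitric oxide synthase use arginine, and IDO1 uses tryptophan. TGF-beta 1 and interleukin-10 are secreted cytokines that dampen inflammation, VISTA and galectin-9 act on T cells and myeloid cells at the cell surface, and prostaglandin E2 and adenosine are small mediators made along routes that need COX-2 (encoded by Ptgs2) and CD73 (encoded by Nt5e).

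Values are TPM (transcripts per 1000000), a level per transcript length that can be compared between genes, and the read depth behind them is unknown. Both controls and anti-CD71 replicate 2 each listed 59881 transcripts, while anti-CD71 replicate 1, as used here, listed 13586, and a transcript it does not list is missing and not 0. Tgfb1 and Nt5e were therefore measured in all 4 libraries and 6 other members in 3 libraries. Nos2 was measured in all 4 through a transcript that carries 88.59% of its TPM, and Lgals9 through one that carries 1.51%. These shares are taken over both controls and anti-CD71 replicate 2 together. In the controls alone the Nos2 transcript held 88.9% and 42.2% of the gene. The basal squamous keratin Krt5 reached 31.4 TPM in anti-CD71 replicate 2 but was listed at 0 in both controls, and Krt14 stood at 36.37 TPM in that library against 0.09 and 0.1 TPM in the controls. The squamous label was thus not borne out by these keratins in the controls, while Sox2 was at 17.06 TPM in anti-CD71 replicate 2 against 16.75 and 15.18 TPM in the controls. The 11 genes found of a skin surface and hair list all lay above both controls in anti-CD71 replicate 2, with a summed level of 186.1 TPM against 1.8 and 2.0 TPM in the controls, 7 of them being listed at 0 in both controls. Krtdap and Sbsn, the list's genes with a transcript listed for anti-CD71 replicate 1, summed over those transcripts to 0.0 TPM in that library and 11.7 TPM in anti-CD71 replicate 2, against 0.7 and 0.6 TPM in the controls. The other genes of that list are missing for anti-CD71 replicate 1, so its skin content is not known.

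The members moved in different directions. Nos2 and Ptgs2 rose and Vsir fell in anti-CD71 replicate 2 against the controls. Arg1, the most abundant member, stood between the controls. Of the 10 members, 4 (Arg2, Nos2, Il10 and Ptgs2) lay above both controls in anti-CD71 replicate 2, 4 (Tgfb1, Vsir, Lgals9 and Nt5e) lay below both, and Arg1 and Ido1 lay between them. Of all 11982 genes tested over these 3 libraries 39.5% lay above both controls and 42.5% below both, so the position alone sets no member apart.

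**Figure D1:**
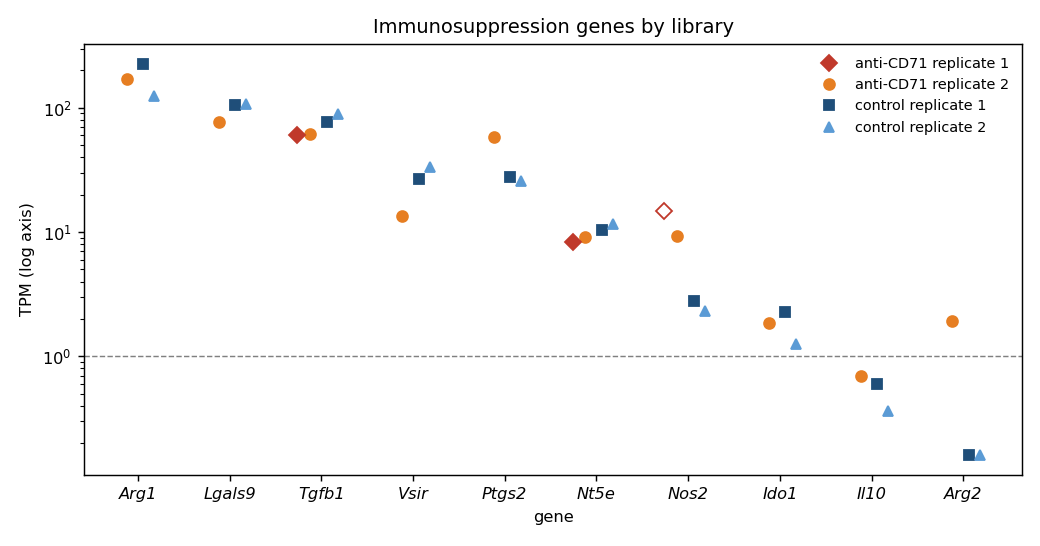
Level of each member in TPM on a log axis, in order of the control mean, with 1 symbol per library; the dashed line marks 1 TPM. Anti-CD71 replicate 1 is shown for Tgfb1 and Nt5e and, as an open symbol, for the listed Nos2 transcript; Arg2, Nos2 and Ptgs2 sit clearly above the controls and Vsir below them.

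In the controls the order was Arg1 (175.64 ± 72.7 TPM), Lgals9 (107.08 ± 1.73 TPM), Tgfb1 (82.6 ± 8.15 TPM), Vsir (29.85 ± 4.68 TPM), Ptgs2 (26.64 ± 1.21 TPM), Nt5e (10.93 ± 0.86 TPM), Nos2 (2.56 ± 0.34 TPM), Ido1 (1.76 ± 0.71 TPM), Il10 (0.48 ± 0.17 TPM) and Arg2 (0.16 ± 0.0 TPM), as mean ± SD with n = 2. Arg1 and Lgals9 differed by less than the SD of Arg1, and the control values of Vsir and Ptgs2 overlapped. In anti-CD71 replicate 2 the first 3 places were the same, but Ptgs2 ranked 4 and Vsir 5, and Arg2 ranked 8, above Ido1 and Il10.

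Of the 8 members tested over 3 libraries (anti-CD71 replicate 2 against both controls, limma on log2(TPM + 1)), 2 rose, 1 fell and 5 did not pass an adjusted p of 0.05. Over all 11982 tested genes 2.86% were called, 0.476% higher and 2.39% lower, while a filter of 1 TPM in 1 library turned this split round to 0.482% higher and 0.0963% lower of 12457 genes. The median log2 change was -0.10 over the 8 members and -0.008 over all tested genes, and 4 of the 8 lay below 0, as did 51.4% of all tested genes. This test assumes that the single anti-CD71 library varies like the controls. For the 1563 genes that could be tested with both anti-CD71 libraries, log2 values differed by more within the anti-CD71 pair (SD 0.294) than within the control pair (SD 0.222), so the errors over 3 libraries may be too small.

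**Figure D2:**
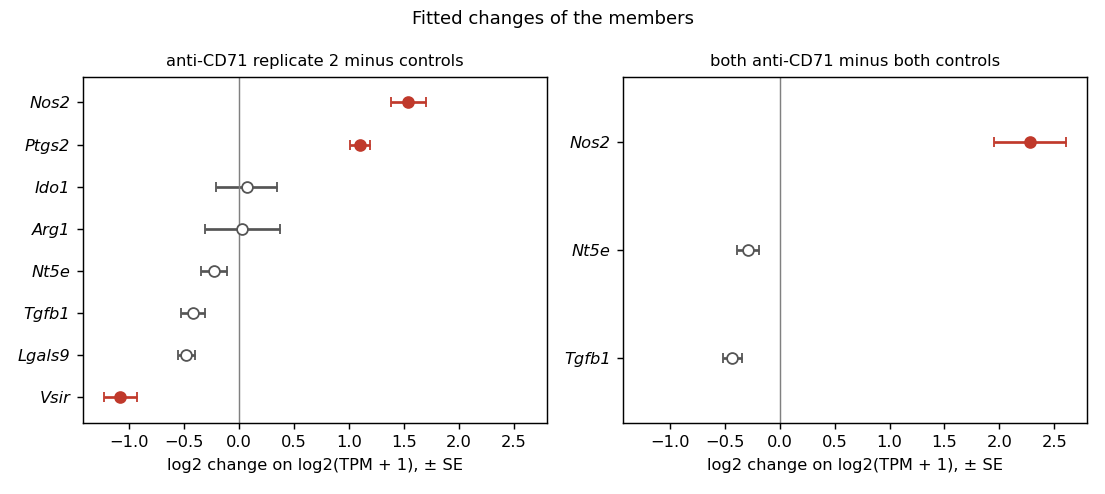
Fitted log2 change on the log2(TPM + 1) scale with its standard error, for anti-CD71 replicate 2 minus the controls (left, 8 members) and for both anti-CD71 libraries minus both controls (right; Nos2 through its listed transcript). Filled red points have an adjusted p under 0.05: Nos2, Ptgs2 and Vsir on the left and Nos2 on the right.

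Among the arginine enzymes, Nos2 rose and Arg1 did not pass. Nos2 encodes inducible nitric oxide synthase, which turns arginine into nitric oxide in activated macrophages and neutrophils (chromosome 11, 78920787 to 78960226). It stood at 9.34 TPM in anti-CD71 replicate 2 against 2.8 and 2.32 TPM in the controls, a 3.65-fold higher level than the control mean (log2 change 1.54, SE 0.16, adjusted p = 0.0288). The anti-CD71 value lay well outside the narrow gap between the controls.

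The files split Nos2 between 2 transcripts that start at different first exons. NM_010927 begins at position 78920787 and has 27 exons, while NM_001313922 begins at 78925203 with a first exon of its own, has 26 exons, and shares 24 with the other. NM_010927, the transcript listed for every library, was measured at 14.84 and 9.34 TPM in anti-CD71 tumours (replicates 1 and 2), against 2.49 and 0.98 TPM in the controls. Both anti-CD71 libraries were thus above both controls, with means of 12.09 ± 3.89 TPM in anti-CD71 tumours and 1.74 ± 1.07 TPM in controls (SD, n = 2 each), a position shared by 24.5% of the 2523 genes with at least 50% of their TPM listed. The later-starting NM_001313922 was listed at 0 in anti-CD71 replicate 2, against 0.31 and 1.34 TPM in the controls. There it held 11.1% and 57.8% of Nos2. Reads within the 24 shared exons cannot tell these forms apart, so the split at these low levels is uncertain.

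With genes admitted to the comparison of 4 libraries at 50% of their TPM listed, the Nos2 transcript rose (log2 change 2.28, SE 0.33, adjusted p = 0.0411 over 2523 genes, of which 0.515% were called higher and 2.3% lower). At the main limit of 90% it was not tested. The change of 2.28 is that of NM_010927 alone. It leaves out the 0.31 and 1.34 TPM listed for NM_001313922 in the controls, a split that is uncertain. Without anti-CD71 replicate 1 the log2 change was 1.98 for NM_010927, against 1.54 for the whole gene over the same 3 libraries. The size of the change of the whole gene over 4 libraries is therefore not known. The call was lost when every gene with any listed transcript entered (adjusted p = 0.117), when transcripts were tested singly (adjusted p = 0.138) and when any 1 library was left out, where the log2 change ran between 1.87 without control replicate 2 and 2.69 without control replicate 1 (adjusted p between 0.0942 and 0.241).

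Arg1, the cytosolic arginase by which macrophages and other myeloid cells turn arginine into ornithine and urea (chromosome 10, 24915207 to 24927470), stood at 171.05 TPM in anti-CD71 replicate 2 against 227.05 and 124.24 TPM in the controls. The anti-CD71 value lay between controls that themselves lay far apart. The log2 change was 0.03 (SE 0.34, limma adjusted p = 0.971). Its unadjusted 95% interval ran between -0.85 and 0.90, so a change of either sign within that interval remains possible. The ratio of Arg1 to Nos2 TPM was 18.3 in anti-CD71 replicate 2 against 81.1 and 53.6 in the controls.

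Arg2, the mitochondrial arginase (chromosome 12, 79130788 to 79156301), was at 1.91 TPM in anti-CD71 replicate 2 against 0.16 and 0.16 TPM in the controls. It passed 1 TPM only in the library where it was high, so the planned filter left it untested. Admitted by a filter of 1 TPM in 1 library, it did not pass (log2 change 1.33, SE 0.11, adjusted p = 0.104), where 0.578% of genes were called. Even in anti-CD71 replicate 2 its level was far below that of Arg1, at a ratio of Arg1 to Arg2 of 89.6.

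The tryptophan enzyme gene Ido1, whose product starts the kynurenine pathway (chromosome 8, 24584133 to 24596952), stood at 1.86 TPM in anti-CD71 replicate 2 against 2.27 and 1.26 TPM in the controls. As for Arg1, the anti-CD71 value lay between the controls. The log2 change was 0.07 (SE 0.28, adjusted p = 0.894), with an unadjusted 95% interval between -0.66 and 0.80.

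Both cytokine genes were measured, at very different levels. Tgfb1 encodes TGF-beta 1, a cytokine that restrains T cells and drives fibroblast activation (chromosome 7, 25687002 to 25705077). Its level was 60.54 and 61.23 TPM in anti-CD71 tumours (replicates 1 and 2), against 76.84 and 88.37 TPM in the controls. The groups did not overlap, as held for 31.1% of the 1563 genes in this direction and 28.3% in the other, and the anti-CD71 mean was 0.74 times the control mean. The difference did not pass over 4 libraries (log2 change -0.43, SE 0.09, adjusted p = 0.0557, unadjusted 95% interval between -0.65 and -0.21), where 4.29% of genes were called, 3.45% lower and 0.832% higher, nor in any of the 13 alternatives run on it.

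Il10 encodes interleukin-10, made by macrophages and regulatory T cells among others (chromosome 1, 131019845 to 131024970). Its level was 0.69 TPM in anti-CD71 replicate 2 against 0.6 and 0.36 TPM in the controls, below 1 TPM throughout, so it was not tested. With no filter on low values its log2 change was 0.20 (SE 0.15, adjusted p = 0.534).

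The cell-surface members Vsir and Lgals9 were both lower in anti-CD71 replicate 2, and Vsir passed the test. Vsir encodes VISTA, an inhibitory checkpoint protein of myeloid cells and T cells (chromosome 10, 60346851 to 60430294). It stood at 13.55 TPM in anti-CD71 replicate 2 against 26.54 and 33.16 TPM in the controls, or 0.45 times the control mean (log2 change -1.08, SE 0.15, adjusted p = 0.0411). Lgals9, the gene of galectin-9, a sugar-binding ligand of TIM-3 (chromosome 11, 78962979 to 78984924), stood at 76.71 TPM in anti-CD71 replicate 2 against 105.86 and 108.31 TPM in the controls, or 0.72 times the control mean. The controls of Lgals9 lay close together and the anti-CD71 library outside them, but the difference did not pass (log2 change -0.48, SE 0.08, adjusted p = 0.0511).

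Macrophage markers moved with these values. Of 14 macrophage genes tested over 3 libraries 9 fell and 1, Cd163, rose. With a pseudocount of 0.1 and with median scaling 7 fell and Cd163 rose, and without the trend or with either looser filter 0 were called by limma (between 11 and 13 of 14 at an unadjusted p under 0.05), with 13 of 14 below 0 in each. Their summed level was 4032.0 TPM in anti-CD71 replicate 2 against 7545.1 and 9543.2 TPM in the controls. Lyz2 alone gave 1961.94 TPM of that library's sum and 3635.04 and 4830.43 TPM of the control sums. None of the 14 genes was listed at 0 in both controls. Over the transcripts of 5 of these genes listed for every library the sums were 339.8 and 328.7 TPM in the anti-CD71 libraries against 494.6 and 547.1 TPM in the controls. The part of macrophage content in the values of Vsir and Lgals9 was not tested, and in bulk tumours fewer cells of a type and less RNA per cell cannot be told apart.

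The transcripts behind Vsir and Lgals9 are shown where they differ, since the forms predict different proteins and the files report each on its own. Galectin-9 consists of a pair of sugar-binding domains joined by a linker, and mouse Lgals9 makes a longer form, NM_010708, and a shorter one, NM_001159301. By the GENCODE annotation of GRCm38 the longer form has an exon 5 of 93 bases, or 31 codons, at chr11:78969714-78969806 on the minus strand, which the shorter form skips. The first sequence is that exon and the second the joint in the shorter form, with 15 bases on either side.
Lgals9 exon of the longer form: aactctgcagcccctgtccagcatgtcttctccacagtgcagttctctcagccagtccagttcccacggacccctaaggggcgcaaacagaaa
Lgals9 joint in the shorter form: tttatcaccttccagactcagaactttcgt

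The shorter form carried nearly all of Lgals9. It held 99.2% of the gene's TPM in anti-CD71 replicate 2 against 98.6% and 97.9% in the controls. The longer form was measured at 2.28 and 0.62 TPM in anti-CD71 tumours (replicates 1 and 2), against 1.47 and 2.29 TPM in the controls. These groups overlapped, and tested singly the longer form did not pass (log2 change -0.31, SE 0.42, adjusted p = 0.748). The value of Lgals9 given above is therefore one of the form without the exon.

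Vsir is split by 3 bases. Exon 6 of NM_028732 begins with CAG at chr10:60368529-60368531 on the plus strand, in capitals here, and NM_001159572 begins 3 bases later, which removes 1 codon.
Vsir joint in NM_028732: gaggatggacagCAGcaacacccaagg
Vsir joint in NM_001159572: gaggatggacagcaacacccaagg

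Both forms were lower in anti-CD71 replicate 2. NM_028732 stood at 10.98 TPM in that library against 22.5 and 27.09 TPM in the controls, and NM_001159572 at 2.57 TPM in that library against 4.04 and 6.07 TPM in the controls. The shares hardly differed, since the first form held 81.0% of Vsir in anti-CD71 replicate 2 against 84.8% and 81.7% in the controls. Reads that do not cross this joint cannot tell the forms apart, so the split rests on few bases.

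**Figure D3:**
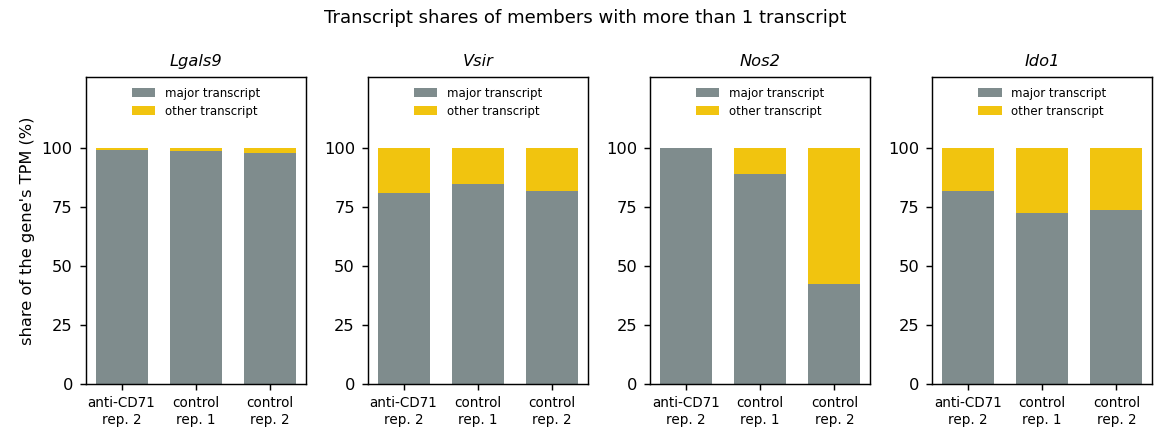
Share of each gene's TPM, in percent, held by its major and its other transcript in anti-CD71 replicate 2 and both controls, for the 4 members with more than 1 transcript. Lgals9, Vsir and Ido1 kept similar shares, while the major Nos2 transcript held all of it in anti-CD71 replicate 2 against 88.9% and 42.2% in the controls.

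Among the genes for small mediators, Ptgs2 rose. Ptgs2 encodes COX-2, the inducible enzyme that opens prostaglandin synthesis (chromosome 1, 150100031 to 150108234). It stood at 58.26 TPM in anti-CD71 replicate 2 against 27.49 and 25.78 TPM in the controls, a 2.19-fold higher level than the control mean (log2 change 1.10, SE 0.09, adjusted p = 0.0197). The anti-CD71 value lay far above the closely placed controls. Ptgs1, the constitutive counterpart COX-1, stood at 60.6 TPM in anti-CD71 replicate 2 against 62.5 and 64.15 TPM in the controls, so the ratio of Ptgs2 to Ptgs1 was 0.961 in that library against 0.44 and 0.402 in the controls. No Ptgs2 transcript was listed for anti-CD71 replicate 1.

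Several neutrophil markers were high in the same library. Of 14 neutrophil genes found, 10 lay above both controls and 0 below both. The 4 listed at 0 in both controls could not lie below them. Of all 11982 tested genes 39.5% lay above both controls, but only 5 of the 14 were tested. That share is thus no like measure for the count of 10. The 14 summed to 587.4 TPM in anti-CD71 replicate 2 against 70.0 and 89.2 TPM in the controls. S100a8 gave 265.49 TPM of that library's sum, against 5.22 and 1.46 TPM in the controls. S100a9 gave 212.99 TPM, against 3.67 and 1.83 TPM. Mmp9 gave 59.62 TPM in that library and 51.94 and 76.33 TPM of the control sums. Camp (0.39 TPM) and Ngp (0.67 TPM) were listed at 0 in both controls, as were Retnlg and Stfa2l1. Over transcripts of 7 of the 14 genes listed for every library, the sums were 155.8 and 197.7 TPM in the anti-CD71 libraries. In the controls they were 4.5 and 2.0 TPM. S100a9 alone, which encodes a calcium-binding protein abundant in neutrophils, made up 142.39 and 183.5 TPM of these sums in the anti-CD71 libraries. In the controls it made up 3.67 and 0.0 TPM. The listed transcripts of Csf3r, the G-CSF receptor gene, stood at 0.68 and 1.09 TPM against 0.83 and 1.34 TPM in the controls. They carry only 12.5% of its TPM. The whole Csf3r gene stood at 10.58 TPM in anti-CD71 replicate 2 against 7.87 and 7.63 TPM in the controls. The part of neutrophils, or of skin, in the values of Nos2, Ptgs2 and Arg2 was not tested.

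The calls of Nos2, Ptgs2 and Vsir over 3 libraries held with a pseudocount of 0.1 and with median scaling. They were lost without an intensity trend (adjusted p = 0.0794, 0.0868 and 0.115 in that order), with a filter of 1 TPM in 1 library (adjusted p = 0.115, 0.0903 and 0.166) and with no filter (adjusted p = 0.196, 0.151 and 0.232).

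Nt5e encodes CD73, the surface enzyme that releases adenosine from AMP (chromosome 9, 88327609 to 88372089). Its level was 8.36 and 9.14 TPM in anti-CD71 tumours (replicates 1 and 2), against 10.32 and 11.54 TPM in the controls, with no overlap, as for 31.1% of the 1563 genes in this direction. The anti-CD71 mean was 0.80 times the control mean. The difference did not pass (log2 change -0.29, SE 0.10, adjusted p = 0.161, unadjusted 95% interval between -0.55 and -0.03), nor in any of the 13 alternatives run on it.

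**Figure D4:**
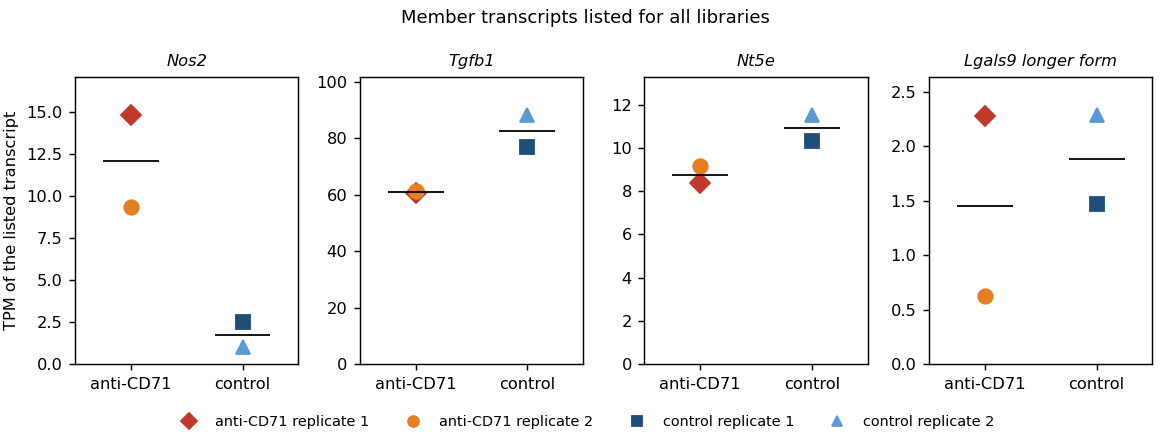
TPM of the 4 member transcripts listed for all 4 libraries, with 1 point per library and a bar at each group's mean. The groups did not overlap for Nos2 (higher in anti-CD71 tumours), Tgfb1 and Nt5e (lower), and overlapped for the longer form of Lgals9.

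The promoters of Ptgs2 and Vsir are printed because these are the called members with a sequence in the RefSeq promoter table (GRCm38.p6), which held 5 of the 10 members, and because the genes moved in opposite directions. Each line gives the 250 bases before the annotated start, at chr1:150099781-150100030 and chr10:60346601-60346850, both on the plus strand. Capitals mark matches, on either strand, to any of 6 motifs. The E-box was searched as CACGTG, the core of a cAMP response element as TGACG, and the AP-1 site as TGANTCA. The C/EBP site was searched as TTNCGNAA, the GC box as GGGCGG, and the TATA box as TATAAA.
Ptgs2 promoter: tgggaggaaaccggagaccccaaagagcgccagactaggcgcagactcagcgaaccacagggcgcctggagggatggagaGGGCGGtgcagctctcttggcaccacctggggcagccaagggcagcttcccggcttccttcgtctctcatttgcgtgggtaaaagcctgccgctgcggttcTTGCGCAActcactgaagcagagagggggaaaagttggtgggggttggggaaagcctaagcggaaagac
Vsir promoter: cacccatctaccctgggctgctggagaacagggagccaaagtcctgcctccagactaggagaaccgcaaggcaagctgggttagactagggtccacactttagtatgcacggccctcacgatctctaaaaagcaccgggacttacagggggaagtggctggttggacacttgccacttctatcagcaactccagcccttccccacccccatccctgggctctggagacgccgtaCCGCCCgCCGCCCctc

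The Ptgs2 window held a C/EBP match, TTGCGCAA, 69 to 62 bases before the start, and a GC box 170 to 165 bases before it. In the next 50 bases of the table's window, after the start, a TGACG match at bases 14 to 18 overlapped a CACGTG match at bases 17 to 22. The Vsir window held GC boxes at 16 to 11 and 9 to 4 bases before the start and at 13 to 18 after it, and none of the other motifs. Of all 32851 windows of 300 bases, 2.5% held the C/EBP motif, 7.2% the E-box, 20.8% TGACG and 35.7% the GC box, with 7.8% holding the AP-1 motif and 13.6% the TATA box. These matches describe the letters only.

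The 7 pathways around the members held 114 further genes, of which 89 were tested over 3 libraries. By limma 1 was higher (1.12%) and 4 were lower (4.49%) at an adjusted p under 0.05. Over all 11982 tested genes these shares were 0.476% and 2.39%. In the arginine and nitric oxide list 0 of the 13 other tested genes passed, with a median log2 change of -0.06. Ass1, which rebuilds arginine from citrulline (log2 change -0.51, adjusted p = 0.168), and the spermidine synthase gene Srm (0.43, adjusted p = 0.0729) differed most. Among enzymes next to the arginases, Odc1, which makes polyamines from ornithine, stood at 328.41 TPM in anti-CD71 replicate 2 against 310.97 and 313.41 TPM in the controls.

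In the TGF-beta list 0 of the 23 other tested genes passed, with a median log2 change of -0.28. With Tgfb1 included 19 of 24 lay below 0, against 51.4% of all 11982 tested genes. Tgfb3, a second ligand of the family, was at 16.25 TPM in anti-CD71 replicate 2 against 33.35 and 46.35 TPM in the controls (log2 change -1.23, SE 0.20, adjusted p = 0.0511). Ltbp2, of the latent TGF-beta binding protein family, differed next most (-0.84, adjusted p = 0.0915).

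Receptors and partners of the cytokine and surface members were among the genes that fell. In the IL-10 list Il10ra, the ligand-binding receptor chain, fell to 15.52 TPM in anti-CD71 replicate 2, against 35.06 and 39.83 TPM in the controls (log2 change -1.22, SE 0.11, adjusted p = 0.0247), as 1 of 9 tested genes. The second chain, Il10rb, was at 35.78 and 37.47 TPM in anti-CD71 tumours (replicates 1 and 2), against 49.19 and 50.08 TPM in the controls and fell over 4 libraries (log2 change -0.43, SE 0.07, adjusted p = 0.0423). In the VISTA and galectin-9 list 2 of the 7 other tested genes fell: Selplg, encoding PSGL-1, a partner of VISTA (log2 change -0.95, adjusted p = 0.0288), and Havcr2, encoding TIM-3 (-0.82, adjusted p = 0.0323). Selplg stood at 26.17 TPM in anti-CD71 replicate 2 against 48.68 and 54.71 TPM in the controls, and Havcr2 at 12.59 TPM against 22.23 and 23.63 TPM in the controls. Igsf11, another VISTA partner, was listed at 0 in all 3 complete libraries. Il10ra, Selplg and Havcr2 are expressed by leukocytes. Macrophage, T cell and NK cell markers were mostly lower in anti-CD71 replicate 2, while several neutrophil markers were higher in it. The 11 T and NK cell genes found summed to 29.9 TPM in anti-CD71 replicate 2 against 110.2 and 114.9 TPM in the controls. Prf1 gave 11.16 TPM of that library's sum and 53.14 and 50.67 TPM of the control sums. Il2rb gave 6.0 TPM, against 25.72 and 27.16 TPM. Of the 10 genes tested over 3 libraries 4 fell and 0 rose by limma, and with no filter 0 were called. Over transcripts of 4 of the 11 genes listed for every library, anti-CD71 replicates 1 and 2 summed to 17.6 and 6.9 TPM. The controls summed to 39.1 and 36.9 TPM over these transcripts. The part of leukocytes in the changes of the receptors and partners was not tested.

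In the prostaglandin list, of the 14 other tested genes 1 rose and 1 fell over 3 libraries: Ptges3, which encodes the co-chaperone p23, also described as a cytosolic prostaglandin E synthase, rose (log2 change 0.53, adjusted p = 0.0361), and the thromboxane synthase gene Tbxas1 fell (-1.09, adjusted p = 0.0288). Over 4 libraries Alox5ap, which serves leukotriene synthesis, fell over its listed transcripts to 144.4 and 137.78 TPM in the anti-CD71 libraries, against 184.51 and 214.49 TPM in the controls (log2 change -0.49, adjusted p = 0.0492). Like the members' calls, those of Il10ra, Selplg, Havcr2, Ptges3 and Tbxas1 held with a pseudocount of 0.1 and with median scaling and were lost under the other 3 alternatives (adjusted p up to 0.206). Il10rb held in the same 2 of 12 alternatives (adjusted p up to 0.344), and Alox5ap in 0 of 12 (adjusted p between 0.0503 and 0.343). The inducible prostaglandin E synthase gene Ptges stood at 98.64 TPM in anti-CD71 replicate 2 against 95.27 and 97.05 TPM in the controls.

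In the tryptophan list 0 of the 12 other tested genes passed, Haao (log2 change -1.02, adjusted p = 0.15) and the amino acid transporter gene Slc7a5 (-0.34, adjusted p = 0.143) differing most. In the adenosine list 0 of 11 passed, Entpd1, encoding CD39, which makes the AMP that CD73 uses (-0.58, adjusted p = 0.062), and the adenosine deaminase gene Ada (-0.56, adjusted p = 0.0725) differing most. Haao stood at 0.68 TPM in anti-CD71 replicate 2 against 1.7 and 3.29 TPM in the controls, and Entpd1 at 12.6 TPM against 18.58 and 20.17 TPM in the controls.

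**Figure D5:**
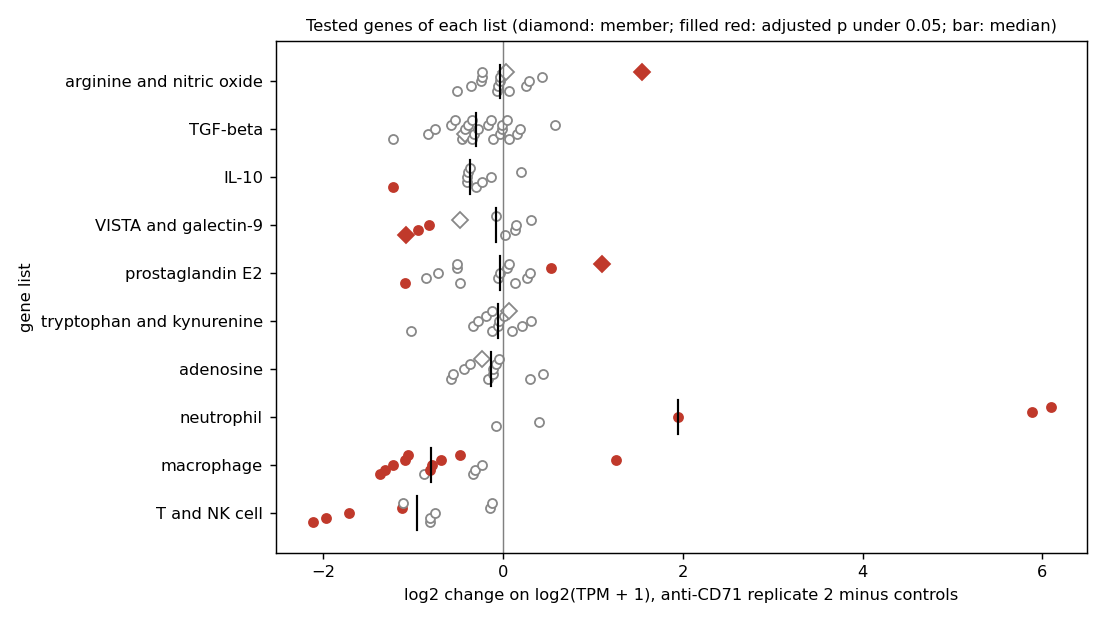
Log2 change on the log2(TPM + 1) scale of every tested gene in the 7 pathway lists and 3 cell marker lists, for anti-CD71 replicate 2 minus the controls, with members as diamonds, calls in filled red and list medians as bars. Nos2 and Ptgs2 lie apart from the rest of their lists on the right, while Vsir lies with Selplg and Havcr2 on the left, on the side of most macrophage, T cell and NK cell genes.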

How the data were processed

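The authors deposited TPM per RefSeq transcript, written to the nearest 0.01, from RNA extracted with TRIZOL, per the labels' protocols. The submitters' processing notes name GRCm38.p6; no aligner or quantifier is named in the sources read for this work. Counting intervals are not given, since TPM hides depth. The last line of anti-CD71 replicate 1, broken inside its value, was not used. A RefSeq table of the same build gave symbols for 58425 of 59881 transcripts, and TPM were summed per gene. Isoform and promoter sequences came from GENCODE vM21 and RefSeq.

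Differences were tested on log2(TPM + 1) by limma 3.58.1 (R 4.3.3), its variance prior following intensity, for genes reaching 1 TPM in 2 libraries, with Benjamini-Hochberg adjustment over all genes tested and a threshold of 0.05; fold changes on this scale understate changes of low genes. The comparison of 4 libraries took genes with at least 90% of their TPM listed for every library, the comparison of 3 libraries all genes. All members were named, with every called gene of 7 pathway lists and otherwise the 2 that differed most; further list genes named as context (Odc1, Ptgs1, Ptges, Igsf11) were chosen after their values were seen. Members and lists were chosen with earlier results of these data known. Replicate numbers mark no stated pairing.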

Additional observations from a re-analysis of the deposited data

How the results depend on the processing

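Genes called over 4 libraries numbered 67 (13 higher and 54 lower), and 57 (21 and 36) with median scaling. They numbered 8 with a filter of 1 TPM in 1 library, 1 with no filter (435 at an unadjusted p under 0.05), 4 without the trend, 4 counting any listed transcript, 4 for single transcripts (an alternative added after seeing the data, as were those on list genes and on Nos2 at 50% with a library left out or blocked) and 3 with a replicate block. Leaving out 1 library gave between 1 (without control replicate 1) and 96 (without anti-CD71 replicate 1) calls, with 2 without control replicate 2 and 33 without anti-CD71 replicate 2. Over 3 libraries 343 genes were called, against 225 with median scaling, 72 with a filter of 1 TPM in 1 library, 35 without the trend and 0 with no filter by limma, the only tool run (3401 at an unadjusted p under 0.05). The causes were not tested.

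Same-numbered libraries did not deviate together (r = -0.006 across 1563 genes). The replicate block left Tgfb1 (adjusted p = 0.111) and Nt5e (adjusted p = 0.193) uncalled. It gave adjusted p = 0.00803 for the listed Nos2 transcript at the limit of 50%. Without either control in turn, with no test, the log2 difference ran between -0.41 and 0.46 for Arg1 and between -0.19 and 0.34 for Ido1, changing sign. The other members kept their direction in all alternatives run, Nos2 over 3 libraries between 1.44 and 1.83, Vsir between -1.23 and -0.92 and Lgals9 between -0.49 and -0.43. Depth is unknown, so levels under 1 TPM (Il10, Arg2 in controls) carry an unknown counting error.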

Other observations

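Regulatory T cells are another source of immunosuppression, and their markers were low in these tumours. Of 7 marker genes 3 were tested over 3 libraries and 0 passed (limma, adjusted p under 0.05). The lineage factor gene Foxp3 stood at 0.41 TPM in anti-CD71 replicate 2 against 0.71 and 0.4 TPM in the controls, and the checkpoint receptor gene Ctla4 at 2.32 TPM in that library against 4.2 and 2.68 TPM in the controls (log2 change -0.40, adjusted p = 0.381). Over all 7 genes the levels summed to 8.0 TPM in anti-CD71 replicate 2 against 11.6 and 9.1 TPM in the controls.

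Of 9 dendritic cell genes tested over 3 libraries 1 fell, Irf8, a transcription factor shared with macrophages (31.1 TPM in anti-CD71 replicate 2 against 50.96 and 59.0 TPM in the controls, log2 change -0.80, adjusted p = 0.0444). The call of Irf8 held with a pseudocount of 0.1 and was lost in the other 4 alternatives, median scaling among them (adjusted p up to 0.225). Over all 10 dendritic cell genes the levels summed to 54.6 TPM in anti-CD71 replicate 2 against 78.4 and 90.2 TPM in the controls. Irf8 alone gave 31.1 TPM of the first sum and 50.96 and 59.0 TPM of the control sums.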
